A study of Homo sapiens with 24 samples.

Results

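Transcripts of the caspases, gasdermins and necroptosis effectors were followed in 2 established clear cell renal cell carcinoma (ccRCC) lines exposed to interferon gamma (IFNγ) with or without an siRNA against PD-L1. The set has 8 genes chosen by symbol, namely CASP1, CASP4, CASP8, CASP10, GSDMD, GSDME, MLKL and RIPK3, and 7 of them were matched among 39321 genes of the count table. RIPK3 was not analysed here. All 7 were measured in every one of the 24 libraries of bulk polyA RNA, with 38 reads for CASP1 as the lowest count of any member and 5000 reads for CASP4 as the highest.

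The libraries were labelled A498 or 786-O, both human kidney carcinoma lines that lack functional VHL, the factor that marks HIF for degradation. Each line had 4 groups of 3 libraries. Cells received a non-targeting control siRNA pool (Cnsi) or a PD-L1 siRNA pool (PD-L1si) at 20 nM, and 24 hours later either IFNγ at 50 ng/mL or no cytokine for 24 hours. The labels call the PD-L1 groups a knockout, whereas the protocol describes transient siRNA pools, and effects of a pool other than on PD-L1 cannot be told apart from loss of PD-L1. All cells were therefore transfected, and no untransfected cells were compared. The growth protocol describes derivatives carrying Renilla luciferase, and whether the sequenced cells carried it is not given in the sources used here.

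The line names need care. The study's own lists place, under each line name, changes nearest to those of the libraries labelled as the other line, so the names may be exchanged in either source, which was not settled here, and "labelled A498" and "labelled 786-O" are used throughout. Each line was also sequenced on its own instrument, and line and instrument cannot be told apart. Library totals ran from 19256316 to 30350461 reads. CD274, which encodes PD-L1, had a mean of 194 ± 4.72 CPM (reads scaled to the library total after TMM normalisation, as are all levels unless stated; SD, n = 3) with Cnsi and IFNγ and 27.7 ± 0.779 with PD-L1si and IFNγ in libraries labelled A498, and 60.4 ± 5.10 and 31.4 ± 1.17 in the 786-O-labelled ones. All 6 renal tumour cell markers were present in both lines, at a summed 3825 to 6186 CPM of the raw totals per library. In libraries labelled A498 most of these reads were from VIM (1084702), while CA9 had 344. The 9 leukocyte markers matched, of 11, summed to at most 1.88 CPM on that scale. Of these 9, 1 was at 0 in all libraries labelled A498 and 3 in all those labelled 786-O, where a row at 0 is taken as not measured. Finally, 4670 genes were listed at 0 in every library labelled 786-O, and 1475 of these had over 1000 reads in the libraries labelled A498. None of the 7 members was among them.

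Caspases are proteases that cut after aspartate and are made as inactive zymogens. CASP8 and CASP10 are the initiator caspases recruited to death receptors such as FAS, where they start apoptosis; CASP8 also holds necroptosis in check by cleaving its kinases. CASP1 is activated on inflammasomes and CASP4 by cytosolic lipopolysaccharide, and both cut GSDMD, whose freed amino-terminal part forms pores in the plasma membrane and causes pyroptosis. GSDME is also opened by cleavage, but during apoptosis, which this turns into a lytic death. MLKL forms the membrane lesion of necroptosis after phosphorylation by RIPK3. Interferon gamma acts through palindromic GAS elements and through IRF1, which binds purine-rich elements, and several cell death genes are known interferon targets. In kidney tumours these proteins are studied because cytotoxic lymphocytes deliver both IFNγ and death receptor ligands.

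The genes lie apart or in small clusters on GRCh38. CASP1 (ENSG00000137752.24) at chr11:105025397-105035250 and CASP4 (ENSG00000196954.14) at chr11:104942866-104969366 are neighbours on the minus strand, and CASP10 (ENSG00000003400.15) at chr2:201182872-201229428 and CASP8 (ENSG00000064012.22) at chr2:201233443-201361836 are neighbours on the plus strand. GSDME (ENSG00000105928.16) at chr7:24698355-24757940 on the minus strand, and MLKL (ENSG00000168404.13) lies at chr16:74671855-74700960 on the minus strand. Counts cover all exons of a gene, so isoforms were not resolved. A long noncoding RNA on the same strand shares 343 exon bases with CASP8 (4.74% of its exon bases) and 1 on the opposite strand shares 136 with GSDMD (2.67%). CASP1 shares near-identical sequence with CARD16 and CARD17P, and reads from shared exons may have been split or dropped, so the levels of all 3 are uncertain in that respect.

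Sequence upstream of the annotated starts is shown for CASP4, CASP8, MLKL and GSDME because the first 3 were induced in both lines whereas the response of GSDME differed between them. The sequences are from RefSeq on GRCh38.p14, where 4 of the 8 members had 6 start sites, and CASP1, CASP10 and RIPK3 had no entry used here. Each stretch reads 5′ to 3′ on the gene's strand and leaves out annotated exons. Capitals mark matches on either strand to TTCNNNGAA (the core of a GAS element) or AANNGAAA (a single IRF contact site).
CASP4, chr11:104968729-104968824, minus strand, 250 to 155 bases before the start: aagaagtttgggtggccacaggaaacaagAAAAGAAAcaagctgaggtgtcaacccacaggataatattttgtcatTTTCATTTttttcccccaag
CASP8, chr2:201233213-201233442, plus strand, the most upstream of 3 starts, 250 to 21 bases before it: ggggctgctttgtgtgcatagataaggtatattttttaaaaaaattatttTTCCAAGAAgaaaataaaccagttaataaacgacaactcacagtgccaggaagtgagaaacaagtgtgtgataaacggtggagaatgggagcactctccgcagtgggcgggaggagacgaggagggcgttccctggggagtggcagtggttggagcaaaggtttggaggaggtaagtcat
MLKL, chr16:74700961-74701112, minus strand, 250 to 99 bases before the start: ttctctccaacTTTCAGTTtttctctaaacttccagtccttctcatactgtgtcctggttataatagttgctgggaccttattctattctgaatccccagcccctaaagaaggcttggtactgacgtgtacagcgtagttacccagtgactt
GSDME, chr7:24757476-24757706, minus strand, 242 to 12 bases before the start: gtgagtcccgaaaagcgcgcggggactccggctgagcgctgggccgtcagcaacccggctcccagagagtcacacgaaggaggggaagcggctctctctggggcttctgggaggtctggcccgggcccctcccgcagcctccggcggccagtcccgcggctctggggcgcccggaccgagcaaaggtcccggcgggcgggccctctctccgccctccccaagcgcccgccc

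In the 250 bases before the start, CASP4 held 3 AANNGAAA matches, 2 of them in the printed stretch. CASP8 held 1 TTCNNNGAA match, 200 to 192 bases before its most upstream start, and 1 AANNGAAA match before another of its starts. MLKL held 1 AANNGAAA match, 239 to 232 bases before the start, and the GSDME window held neither. The paired IRF site, GAAA followed after any 2 bases by a further GAAA, contains AANNGAAA and was found before no start of these 4 genes. Among all 35116 RefSeq windows of this length, 6.57% held TTCNNNGAA, 20.3% AANNGAAA and 3.02% the paired site, so the shorter motif is common. The GSDME window was 76.4% G and C, against a median of 58.0% over all windows, and the CASP4 window 38.0%. A match is a run of letters, not a bound site.

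IFNγ raised the transcripts of most of the set in cells with control siRNA. In libraries labelled A498, 6 of 7 members were called higher by edgeR (adjusted p under 0.05 and a log2 change over 0.5), where 18.2% of 20916 genes tested were called higher. For the label 786-O, 6 of 7 were called higher as well, against 11.1% of 21209 genes. The member that was not called was CASP10 in the former and GSDME in the latter. The median log2 change of the 7 was 1.26 and 1.24, beside -0.03 and 0.0049 over all genes tested. Every library with IFNγ lay above every library without it for all 7 members in both lines, an order that 32.4% and 25.6% of genes tested showed.

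**Figure D1:**
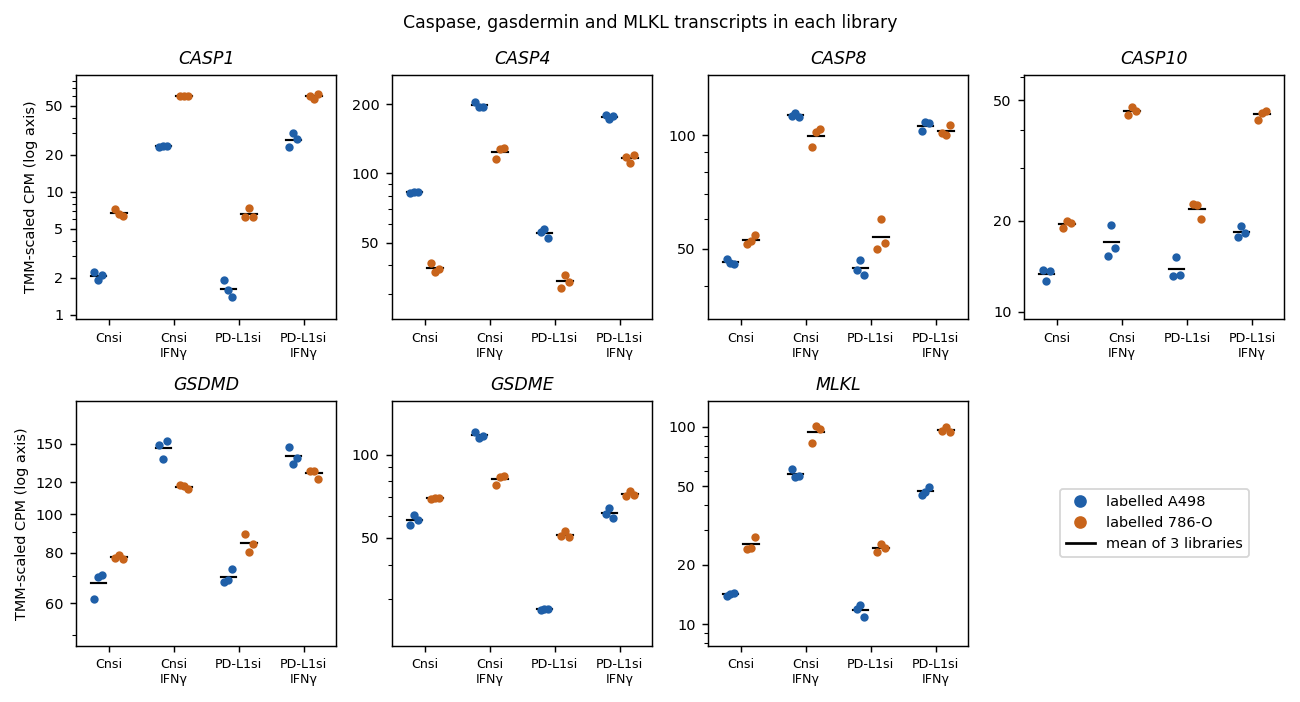
Level of each of the 7 measured members in every library, in TMM-scaled CPM on a log axis, by siRNA and IFNγ (horizontal positions) and line label (colours), with the mean of 3 libraries as a black bar. CASP1 in libraries labelled 786-O lies near 6 to 7 CPM without IFNγ and near 57 to 62 with it, and GSDME in libraries labelled A498 is lower with PD-L1si than with Cnsi both with and without IFNγ.

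CASP1, the inflammasome protease, had the largest change of the members in both lines. In libraries labelled A498 it was at 2.23, 1.91 and 2.11 CPM with Cnsi and at 23.2, 23.7 and 23.4 CPM with Cnsi and IFNγ. It thus went from the lowest transcript of the set to a moderate level, an 11.2-fold rise (log2 change 3.49, SE 0.111, adjusted p = 6.16e-25). In libraries labelled 786-O it was at 7.26, 6.54 and 6.31 CPM with Cnsi and at 59.5 CPM in all 3 libraries with IFNγ, an 8.86-fold rise (log2 change 3.15, SE 0.0703). The starting level was higher in this line, and the change in log2 did not differ between lines at the threshold (labelled 786-O minus labelled A498, -0.35, SE 0.149, adjusted p = 0.0519). CARD16, a CARD-only relative that restrains CASP1 and shares sequence with it, rose too, by 2.70 in log2 (SE 0.256) in libraries labelled A498 and 2.44 (SE 0.118) in the 786-O-labelled ones.

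CASP4, the lipopolysaccharide-sensing caspase, was among the most abundant members per kilobase with IFNγ in both lines, and in libraries labelled A498 also without it. With Cnsi in libraries labelled A498 it was at 82.5, 83.2 and 82.7 CPM, and with IFNγ at 204, 194 and 195 CPM, a rise of 1.26 in log2 (SE 0.0420, adjusted p = 2.78e-24). The same groups labelled 786-O were at 40.8, 37.3 and 38.4 CPM and at 116, 127 and 129 CPM, a rise of 1.67 (SE 0.0579, adjusted p = 2.7e-18). The line with the lower starting level had the larger rise, and the difference of 0.41 in log2 (SE 0.0709, adjusted p = 6.23e-06) was under the fold threshold. Without the libraries numbered 1 it was 0.52, over the threshold.

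The initiator caspases CASP8 and CASP10, neighbours on chromosome 2, responded unequally. CASP8 rose from 47.1, 45.8 and 45.6 CPM to 113, 115 and 112 CPM in libraries labelled A498 (log2 change 1.29, SE 0.0453), and from 51.5, 52.6 and 54.6 CPM to 93.2, 102 and 104 CPM in the 786-O-labelled ones (0.91, SE 0.0606). The 2 lines thus started close together and CASP8 went higher in the libraries labelled A498. The difference in log2 change, -0.39 (SE 0.0766, adjusted p = 5.39e-05), was under the fold threshold.

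CASP10 showed the opposite order. In libraries labelled 786-O it went from 19.0, 19.9 and 19.7 CPM to 44.8, 47.5 and 46.1 CPM, a 2.36-fold rise (log2 change 1.24, SE 0.0597, adjusted p = 3.57e-15). In the A498-labelled libraries it was at 13.8, 12.6 and 13.7 CPM with Cnsi and 15.3, 19.3 and 16.3 CPM with IFNγ, a log2 difference of 0.35 (SE 0.0807, adjusted p = 0.000308) that was not large enough to be called. The IFNγ libraries labelled A498 were spread widely, at 17.0 ± 2.09 CPM (SD, n = 3). The response differed between lines by 0.88 in log2 (SE 0.102, adjusted p = 1.83e-09).

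The gasdermins, which form the pores, had smaller changes than CASP1 and MLKL. GSDMD (ENSG00000104518.11, chromosome 8) went from 61.4, 69.8 and 70.6 CPM to 149, 137 and 153 CPM in libraries labelled A498, a 2.17-fold rise (log2 change 1.12, SE 0.0515). With the label 786-O it went from 77.5, 79.0 and 77.4 CPM to 118, 117 and 115 CPM, a rise of 0.58 in log2 (SE 0.0477). Libraries with and without IFNγ were well apart in both lines, and the rise was smaller in the 786-O-labelled ones (difference -0.54, SE 0.0719, adjusted p = 4.05e-08). This difference fell under the fold threshold, at -0.49, without the libraries numbered 1.

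GSDME also responded differently in the lines. In libraries labelled A498 it doubled (2.02-fold), from 55.8, 60.6 and 58.1 CPM to 121, 115 and 117 CPM (log2 change 1.01, SE 0.0453, adjusted p = 1.68e-20). With the label 786-O it was at 69.2, 69.5 and 69.9 CPM with Cnsi and 77.9, 83.3 and 83.4 CPM with IFNγ, a log2 difference of 0.23 (SE 0.0478, adjusted p = 0.000342) under the fold threshold. The groups did not overlap in either line, although the gap was narrow in the latter. The response was smaller in libraries labelled 786-O by 0.79 in log2 (difference -0.79, SE 0.0647, adjusted p = 2.21e-13).

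MLKL, the executor of necroptosis, rose about as much in both lines. It went from 13.9, 14.2 and 14.4 CPM to 60.8, 55.5 and 56.4 CPM in libraries labelled A498 (4.07-fold, log2 change 2.03, SE 0.0605), and from 24.0, 24.4 and 27.6 CPM to 82.8, 101 and 97.5 CPM in the 786-O-labelled ones (3.70-fold, 1.89, SE 0.0688). The lines differed in the response by -0.14 in log2 (SE 0.0949, adjusted p = 0.220).

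Of the 7 responses to IFNγ with Cnsi, 3 were called different between lines (CASP10 larger, GSDMD and GSDME smaller in libraries labelled 786-O), where 28.4% of 17999 genes tested in both lines were called different.

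**Figure D2:**
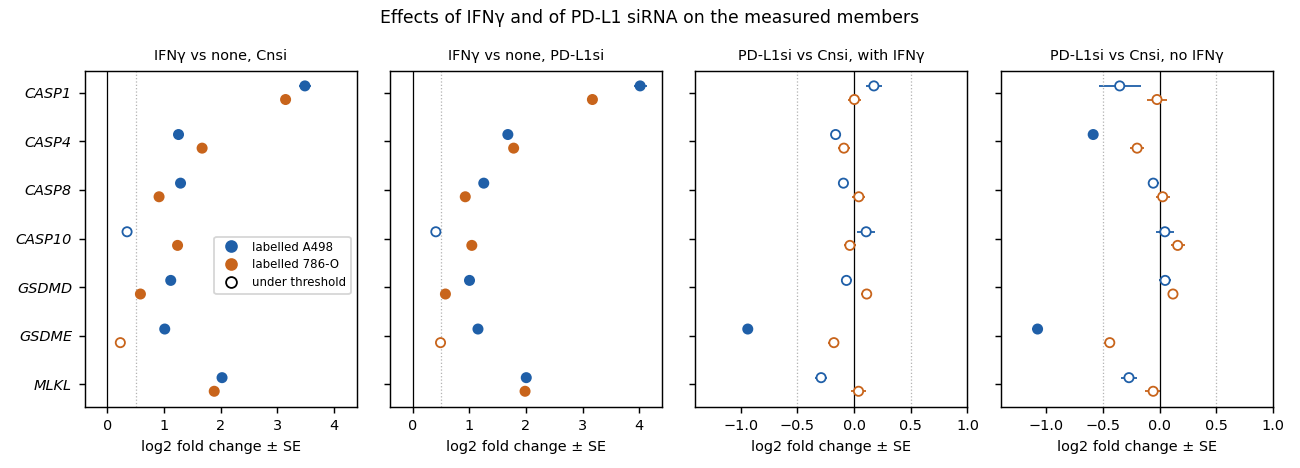
Log2 fold change with its standard error for the 7 members in 4 comparisons, by line label (colours), with filled points for calls (adjusted p under 0.05 and a log2 change over 0.5, dotted lines) and open points for the others. CASP1 and MLKL are farthest to the right with IFNγ, and GSDME labelled A498 is farthest to the left with PD-L1si.

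Levels were compared between genes per kilobase of exon (CPM per kb). Exon length was that of all annotated transcripts of a gene together, from GENCODE v44, whereas reads were counted on v33. The order between genes therefore depends in part on the annotation. With Cnsi in libraries labelled A498 the order was GSDMD at 13.2, CASP4 at 12.4, GSDME at 6.77, CASP8 at 6.38, MLKL at 2.48, CASP10 at 1.5 and CASP1 at 0.526 CPM per kb. GSDMD and CASP4 overlapped between libraries, as did GSDME and CASP8, and the other neighbours did not. With IFNγ the order was CASP4 at 29.7, GSDMD at 28.8, CASP8 at 15.6, GSDME at 13.7, MLKL at 10.1, CASP1 at 5.91 and CASP10 at 1.90, and again CASP4 and GSDMD overlapped. CASP1 and CASP10 had exchanged places.

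With Cnsi and the label 786-O the order was GSDMD at 15.3, GSDME at 8.08, CASP8 at 7.31, CASP4 at 5.83, MLKL at 4.45, CASP10 at 2.19 and CASP1 at 1.69 CPM per kb, with no overlap between neighbours. With IFNγ GSDMD stayed highest at 23.0, followed by CASP4 at 18.6, MLKL at 16.5, CASP1 at 15.0, CASP8 at 13.8, GSDME at 9.48 and CASP10 at 5.17. CASP4 and MLKL overlapped, and so did MLKL and CASP1. On this scale GSDMD, the substrate of CASP1 and CASP4, was thus at or near the top in every group of both lines, while CASP1 was lowest without IFNγ.

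The response to IFNγ was then measured in cells with PD-L1 siRNA. Of 7 members, 6 were called higher in each line, where 17.6% of genes tested were called higher in libraries labelled A498 and 11.0% in the 786-O-labelled ones. All 7 again had every IFNγ library above every library without it (31.5% and 27.4% of genes tested). CASP1 rose by 4.01 in log2 (SE 0.114) in libraries labelled A498, from 1.90, 1.6 and 1.39 CPM to 23.0, 29.9 and 26.8 CPM, and by 3.17 (SE 0.0702) in the 786-O-labelled ones, from 6.28, 7.34 and 6.20 CPM to 59.8, 57.2 and 61.8 CPM. MLKL rose by 2.00 (SE 0.0635) and 1.98 (SE 0.0689). CASP10 labelled A498 was again under the fold threshold, at 0.41 (SE 0.0802), and so was GSDME labelled 786-O, at 0.49 (SE 0.0487). Leaving out 1 of 3 libraries labelled 786-O brought GSDME to 0.50 or 0.51 and over the threshold, namely PD-L1si replicate 2 and PD-L1si IFNγ replicates 1 and 3.

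Between lines, 3 of these 7 responses were called different, against 25.9% of genes tested. CASP10 was larger in libraries labelled 786-O by 0.63 (SE 0.101), GSDME smaller (-0.66, SE 0.0689) and CASP1 smaller (-0.85, SE 0.154, adjusted p = 1.56e-05). GSDMD, at -0.43 (SE 0.0716), did not pass the fold threshold here. These comparisons share no library with those in cells with Cnsi.

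Whether PD-L1 siRNA altered the response itself was tested as the interaction of siRNA and IFNγ. With edgeR, 0 of 7 members were called in either line, where 2.45% of genes labelled A498 and 0.099% of genes labelled 786-O were called. At an unadjusted p under 0.05 there were 2 in each line, and DESeq2 called 0. The share of all genes at that unadjusted p is not given here. CASP4 labelled A498 had a response larger by 0.42 in log2 with PD-L1si (SE 0.0602, adjusted p = 5.42e-06), under the fold threshold. CASP1 labelled A498 had one larger by 0.53 (SE 0.199, adjusted p = 0.0976), and it was called, at 0.61 with an adjusted p of 0.0211, when PD-L1si IFNγ replicate 1 was left out.

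PD-L1 siRNA itself lowered GSDME in libraries labelled A498, with and without IFNγ. Under IFNγ GSDME was at 121, 115 and 117 CPM with Cnsi and 60.7, 64.2 and 59.1 CPM with PD-L1si, a fall to 0.522 of the control level (log2 change -0.94, SE 0.0458, adjusted p = 5.03e-18). Without IFNγ it was at 55.8, 60.6 and 58.1 CPM with Cnsi and at 27.4, 27.7 and 27.7 CPM with PD-L1si, a fall to 0.474 (log2 change -1.08, SE 0.0506, adjusted p = 1.29e-18). GSDME with PD-L1si and IFNγ was thus near its level with Cnsi and no cytokine. The response to IFNγ, 1.01 with Cnsi and 1.15 with PD-L1si, differed between siRNAs by 0.14 in log2 (SE 0.0684, adjusted p = 0.238).

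GSDME was the 1 member of 7 called lower under IFNγ in libraries labelled A498, where 5.75% of genes tested were called lower. Without IFNγ 2 of 7 were called lower, GSDME and CASP4, against 5.6% of genes. CASP4 went from 82.5, 83.2 and 82.7 CPM to 55.8, 57.2 and 52.6 CPM, a change of -0.59 in log2 (SE 0.0445, adjusted p = 4.66e-13). Under IFNγ its levels were 204, 194 and 195 CPM with Cnsi and 180, 173 and 177 CPM with PD-L1si, a narrower gap of -0.16 (SE 0.0405, adjusted p = 0.00154) that was not called. MLKL was at -0.29 (SE 0.0528, adjusted p = 3.22e-05) under IFNγ and -0.27 (SE 0.0732, adjusted p = 0.00402) without it, its libraries apart in both cases and its change under the fold threshold.

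The other members labelled A498 showed no call with PD-L1 siRNA. CASP8 was at -0.09 (SE 0.0429) under IFNγ and -0.06 (SE 0.0479) without it, GSDMD at -0.07 (SE 0.0496) and 0.05 (SE 0.0530), and CASP10 at 0.11 (SE 0.0792) and 0.05 (SE 0.0818). CASP1 was at 0.17 (SE 0.0734) under IFNγ and, with its wider error at few reads, -0.35 (SE 0.184) without it.

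In libraries labelled 786-O, 0 of 7 members were called with PD-L1 siRNA by edgeR or by DESeq2, either under IFNγ (3.03% of genes tested called) or without it (2.81%). At an unadjusted p under 0.05 there were 2 members under IFNγ and 4 without, again with no share of all genes beside them. GSDME had the largest difference here too. It was at 69.2, 69.5 and 69.9 CPM with Cnsi and 50.7, 52.8 and 50.2 CPM with PD-L1si without IFNγ, a log2 difference of -0.44 (SE 0.0486, adjusted p = 4.6e-07). Under IFNγ it was at 77.9, 83.3 and 83.4 CPM with Cnsi and 71.0, 73.9 and 71.2 CPM with PD-L1si, a difference of -0.18 (SE 0.0479, adjusted p = 0.0120). The groups did not overlap in either case, and both differences were under the fold threshold. CASP4 without IFNγ was at -0.20 (SE 0.0604, adjusted p = 0.0292).

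The effect of PD-L1 siRNA on GSDME differed between the lines, by 0.77 in log2 under IFNγ (labelled 786-O minus labelled A498, SE 0.0650, adjusted p = 1.39e-11) and by 0.64 without it (SE 0.0685, adjusted p = 2.58e-09). GSDME was the 1 member of 7 called different in each of these comparisons, where 5.6% and 4.48% of genes were called. CD274 itself moved with the line in the same way. Its log2 change with PD-L1si under IFNγ was -2.81 (SE 0.0547) in libraries labelled A498 and -0.94 (SE 0.0702) in the 786-O-labelled ones, and the part of this in the result for GSDME was not tested.

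**Figure D3:**
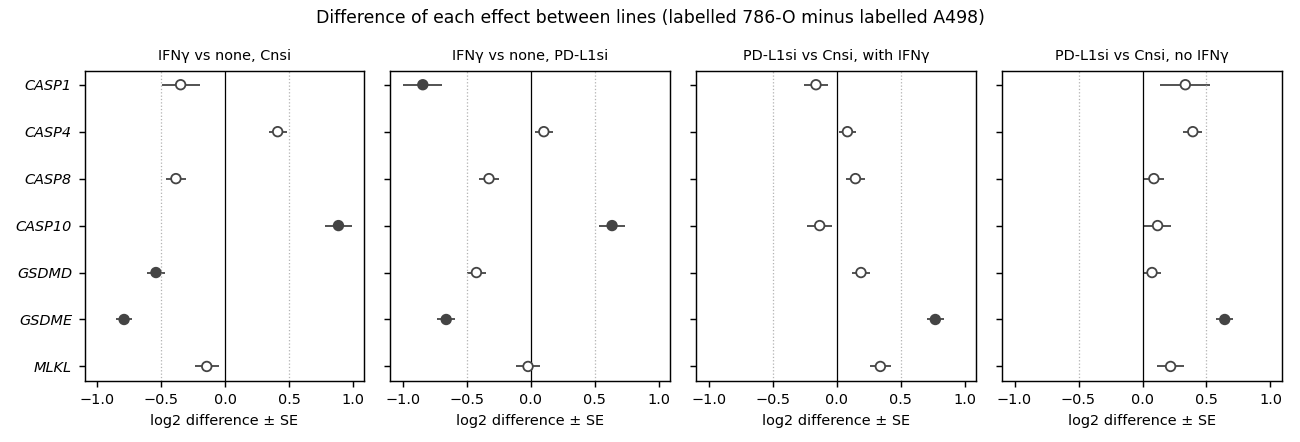
Difference between lines (labelled 786-O minus labelled A498) in the log2 effect of each comparison for the 7 members, with its standard error. Filled points were called (adjusted p under 0.05 and a difference over 0.5, dotted lines). GSDME is called in all 4 panels, below 0 for IFNγ and above 0 for PD-L1 siRNA.

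The wider cell death pathways were described with 66 other genes in 8 role groups, of which 63 were matched in the table. In libraries labelled A498 58 were tested, 24 were called higher and 8 lower with IFNγ in cells with Cnsi, where 18.2% of all genes tested were called higher and 18.5% lower, and the median log2 change was 0.35. Of the list, 42 were tested in libraries labelled 786-O, 14 were called higher and 2 lower, against 11.1% and 7.39% of all genes, and the median was 0.32. A further 18 of the genes were listed at 0 in all libraries labelled 786-O, among them APAF1, FADD, CYLD, XIAP, NLRP3 and PMAIP1, so the lists tested differ between lines. Role group counts given below are to be read beside the same shares of all genes, and counts near them are not results about a group.

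Inflammasome genes, which assemble the platform that activates CASP1, had 4 of 9 called higher and 1 lower in libraries labelled A498, and 3 of 7 called higher in the 786-O-labelled ones. The shares of all genes were 18.2% higher and 18.5% lower labelled A498, and 11.1% higher labelled 786-O. AIM2, the sensor of cytosolic DNA, went from 2, 1 and 1 reads to 382, 439 and 314 in libraries labelled A498 and from 1, 0 and 0 to 25, 15 and 21 in the 786-O-labelled ones. It was thus close to absent without IFNγ in both lines and reached 16.0 ± 0.958 CPM (SD, n = 3) in the former. NLRP3, another sensor, rose by 2.30 in log2 (SE 0.263) and PYCARD, the adaptor that links sensors to CASP1, by 1.08 (SE 0.225) in libraries labelled A498, to means of 2.08 and 1.82 CPM. The cytokine substrates of CASP1 rose in libraries labelled 786-O, IL18 by 1.80 (SE 0.0908) from 8.03 to 27.9 CPM and IL1B by 1.29 (SE 0.265) from 0.704 to 1.73 CPM. IL1B was the inflammasome gene called lower in libraries labelled A498, from 0.385 to 0.124 CPM (-1.55, SE 0.576, adjusted p = 0.0192 with edgeR and 0.0634 with DESeq2).

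Among all genes tested, 18.2% labelled A498 and 11.1% labelled 786-O were called higher with IFNγ in Cnsi. The relatives of CASP1 were called higher in 2 of 2 and 3 of 3 cases tested, 1 of which, CASP5 labelled 786-O, was not called by DESeq2 (adjusted p = 0.0544). Beside CARD16 and the scarce CASP5, these included CARD17P, with 0 reads in all 3 Cnsi libraries labelled 786-O and 15, 11 and 13 with IFNγ, at least 13.1-fold higher against a floor of 3 reads over the group. CARD17P was at 0 in the same groups labelled A498. CARD16 and CARD17P share sequence with CASP1, and whether reads of CASP1 were counted to them was not tested. Of the other gasdermins and NINJ1, 0 of 3 were called in libraries labelled A498 and 1 of 3 in the 786-O-labelled ones. That gene was GSDMB, a gasdermin cleaved by granzyme A, which rose from 16.5 to 48.9 CPM (log2 change 1.56, SE 0.192).

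Executioner and mitochondrial apoptosis genes moved in both directions. In libraries labelled A498 1 of 8 was called higher and 4 lower, where 18.2% and 18.5% of all genes were. The lowered genes included the executioner CASP6, from 21.2 to 10.7 CPM (-0.99, SE 0.0706), and APAF1, the scaffold of the apoptosome (-0.74, SE 0.0731). With the label 786-O 1 of 5 was called higher and 1 lower, where 11.1% and 7.39% of all genes were. The lowered gene was CASP9 (-0.66, SE 0.130), the initiator that APAF1 activates.

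Death receptor genes included FAS, which rose from 65.3 to 166 CPM in libraries labelled A498 (1.35, SE 0.0496), and TNFSF10, which encodes the ligand TRAIL and rose from 39.0 to 253 CPM in the 786-O-labelled ones (2.70, SE 0.0572). TNFSF10 was not called with IFNγ in libraries labelled A498, although these held more of its reads over all groups (433043, against 46234 labelled 786-O). TRADD, an adaptor of TNF receptor 1, rose by 0.63 (SE 0.0813) in libraries labelled A498. In all, 2 of 7 were called higher in libraries labelled A498 and 1 of 6 in the 786-O-labelled ones, and none lower. Of all genes tested, 18.2% and 11.1% were called higher, so these counts are not read as a result about the group.

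Necroptosis kinases, sensors and regulators had 6 of 8 called higher in libraries labelled A498 and 2 of 5 in the 786-O-labelled ones, with none lower. The shares of all genes called higher were 18.2% and 11.1%. ZBP1, a sensor of Z-form nucleic acid that engages RIPK3, had 0 reads in all 3 Cnsi libraries labelled A498 and 27, 25 and 20 with IFNγ, at least 23.3-fold higher, and 0, 0 and 1 reads against 16, 17 and 20 in the 786-O-labelled ones. CYLD, a deubiquitinase of RIPK1 complexes, rose by 2.18 (SE 0.0503) in libraries labelled A498. TNFAIP3, which encodes A20 and restrains NF-κB and necroptosis, rose by 1.93 (SE 0.0492) and 2.28 (SE 0.0861).

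Of the inhibitors of caspases and death signalling, 4 of 9 were called higher in libraries labelled A498 and 1 of 6 in the 786-O-labelled ones, with none lower. CFLAR, which encodes the CASP8 inhibitor cFLIP, went from 131 to 302 CPM (1.2, SE 0.0393) and from 172 to 247 CPM (0.52, SE 0.0467). BIRC2, a ubiquitin ligase that restrains death at TNF receptor complexes, rose by 0.97 (SE 0.0518) and SERPINB9, the granzyme B inhibitor, by 1.00 (SE 0.0615) in libraries labelled A498. In the BCL2 family 5 of 12 were called higher and 3 lower in libraries labelled A498, against 2 of 7 and 1 in the 786-O-labelled ones. Beside these groups, 18.2% of all genes were called higher and 18.5% lower labelled A498, and 11.1% and 7.39% labelled 786-O. The pro-apoptotic BAK1 rose in both (1.39, SE 0.0514, and 1.38, SE 0.0482), PMAIP1, which encodes the BH3-only protein NOXA, rose 4.77-fold in libraries labelled A498, and BMF, another BH3-only gene, fell there from 6.28 to 1.34 CPM. MCL1, a pro-survival member, rose by 0.79 (SE 0.0499) and BCL2 fell by 0.94 on the log2 scale in libraries labelled 786-O.

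**Figure D4:**
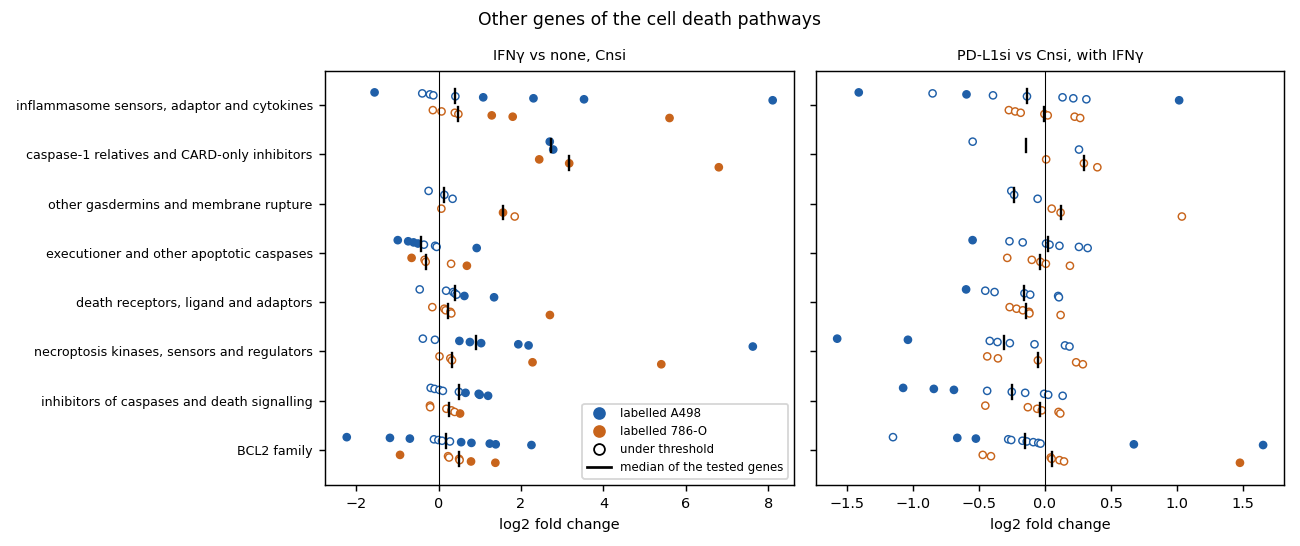
Log2 fold change of each tested gene of the 8 role groups with IFNγ in cells with Cnsi (left) and with PD-L1si against Cnsi under IFNγ (right), by line label (colours), filled where called, with the group median as a black bar. In the left panel the points farthest to the right are AIM2 and ZBP1 labelled A498 and CARD17P labelled 786-O, genes with few or no reads without IFNγ.

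With PD-L1 siRNA the wider list had 3 genes called higher and 11 lower of 58 under IFNγ in libraries labelled A498, where 4.36% of all genes tested were called higher and 5.75% lower. Without IFNγ it had 2 higher and 12 lower, against 2.87% and 5.6%. TNFAIP3 fell in both cases (-1.57, SE 0.0489, and -2.03, SE 0.0622), and SERPINB9 did so too (-0.84, SE 0.0620, and -0.90, SE 0.0726). BMF rose (1.65 and 1.67). In libraries labelled 786-O 1 of 42 genes was called under IFNγ, BMF (1.48, SE 0.208), and 2 without it, BMF (1.43) and MCL1 (-0.68, SE 0.0507). Of all genes tested, 3.03% and 2.81% were called in these comparisons, so counts this small are not read as a result about the list. The interaction of siRNA and IFNγ was called for 3 of 58 genes labelled A498, TNFSF10 (0.71), BIRC3 (0.86) and PYCARD (1.21), against 2.45% of all genes tested. Of these, DESeq2 called TNFSF10 and BIRC3 and gave PYCARD no adjusted p. The interaction was called for 0 of 42 labelled 786-O by edgeR, against 0.099% of all genes tested, and DESeq2 called 0. At an unadjusted p under 0.05 there were 7, with no share of all genes beside them. BIRC3 is named after its value was seen.

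The genes whose profile was most like that of each member were found by Pearson's r of log2(CPM + 1) over the 12 libraries of a line. These libraries share the 4 groups, so r mostly reflects the differences between groups and is given as a description. MLKL was most like RFX5, a factor of the HLA class II promoter, in both lines (r = 0.999 in each), among 10352 genes labelled A498 and 9335 labelled 786-O. In libraries labelled A498 CASP1 was most like SNX6 (0.999), CASP8 like IFIT5 (0.999), CASP4 like OAS1 (0.998) and GSDMD like NFIX (0.995). GSDME, the member called lower with PD-L1 siRNA both with and without IFNγ, was most like DKK3 (0.998) there. CASP10 had the weakest best match (ZCCHC7, 0.960). For the label 786-O CASP1 was most like the lysosomal protease gene CTSS (r rounding to 1.00), CASP4 like IRF2 (0.998), CASP10 like DRAM1 (0.997), CASP8 like USP18 (0.996) and GSDMD like RHEX (0.994), and here GSDME had the weakest best match (ATP8B2, 0.989).

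Nothing in the labels says that libraries of a group came from separate cultures, so the p-values measure the spread between these libraries, which may be technical. In bulk RNA, fewer cells and less RNA per cell cannot be told apart, and transcript levels do not measure cleavage of a caspase or gasdermin or phosphorylation of MLKL.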

How the data were processed

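RNA was sequenced from 24 libraries in 8 groups of 3. The authors trimmed reads with Trimmomatic 0.36.6, aligned them to GRCh38 with HISAT2 2.1.0 and counted them by strand with featureCounts 1.6.3 (mapping quality of at least 12) on GENCODE v33. The deposited values are raw counts per gene, and every column was matched to a sample. Gene names and positions are from GENCODE v44 on the same assembly, in which 39148 of 39321 genes matched. Because paralogous exons and low mapping quality remove reads, levels of CASP1 may be understated. Totals of 19256316 to 30350461 reads set the counting precision.

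Counts were scaled by TMM and tested in R 4.3.3 with the quasi-likelihood F-test of edgeR 4.0.16 (two-sided), with 1 model of 12 libraries and a mean per group for each line and 1 of 24 libraries for differences between lines. Genes with at least 10 reads summed over some group of 3 were tested, p-values were adjusted by Benjamini-Hochberg over all of them, and a call needed an adjusted p under 0.05 and a log2 change over 0.5. All biotypes were tested. On simulated data, at 200 changed genes per line, 98 of 100 genes changed by 1 in log2 were recovered labelled A498 (19983 genes) and 97 of 100 labelled 786-O (20108 genes). All 100 changed by 2 in log2 were recovered in each. The alternatives were DESeq2 1.42.0, another scaling, other filters and thresholds, protein-coding genes alone, a replicate block, and libraries left out.

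The members and lists were chosen with earlier results of these data known. All members are named, and of each role group up to 3 called genes per line with the largest IFNγ change in Cnsi and at least 1 CPM in a group. Like genes had a mean of at least 5 CPM. Some genes of the lists are not reported here by name.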

Additional observations from a re-analysis of the deposited data

Results flagged for a closer look

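Effects that differed between libraries labelled 786-O and those labelled A498, by the test of the difference itself in the 24-library edgeR model, were found for 4 members. Such differences were common for IFNγ, called for 28.4% of all genes tested with Cnsi and 25.9% with PD-L1si. For PD-L1 siRNA the shares were 5.6% under IFNγ and 4.48% without it. The counts for IFNγ are therefore not read as a trait of these genes. The response to IFNγ with Cnsi differed for CASP10 by 0.88, for GSDMD by -0.54 and for GSDME by -0.79 in log2 (labelled 786-O minus labelled A498). With PD-L1si it differed for CASP10 by 0.63, for GSDME by -0.66 and for CASP1 by -0.85. The effect of PD-L1 siRNA differed for GSDME by 0.77 under IFNγ and by 0.64 without it. CASP10 and GSDME showed the same direction with either siRNA, in separate libraries. Line label and sequencing instrument cannot be told apart in all 8 cases. With 3 libraries per group, single libraries that stand apart were not looked for.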

How the results depend on the processing

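Over the alternatives, 1632 member values kept their direction and side of the threshold, 5 passed it, 1 fell under it and 28 changed sign, 0 of the 28 in a value called in either fit. The 6 were all from leaving out libraries: the CASP1 interaction labelled A498 (0.61 without PD-L1si IFNγ replicate 1), GSDME with IFNγ in PD-L1si labelled 786-O (0.50 to 0.51), and the line differences of CASP4 (0.52) and GSDMD (-0.49) without replicate 1. Of the counts, 416 stayed within 1.5 times and 26 did not, nearly all at another fold threshold, where fewer or more genes pass by construction. Leaving out libraries gave 24 of the 28 sign changes. The log2 ranges over left-out libraries, for PD-L1 siRNA under IFNγ labelled 786-O, were -0.023 to 0.034 for CASP1, -0.0069 to 0.071 for CASP8 and -0.045 to 0.094 for MLKL, and without IFNγ -0.104 to 0.040 for CASP1, -0.054 to 0.099 for CASP8 and -0.095 to 0.0075 for MLKL. Labelled A498 without IFNγ they were -4.68e-05 to 0.098 for CASP10 and -0.014 to 0.100 for GSDMD. Interactions ranged from -0.025 to 0.162 for CASP10 and -0.098 to 0.0084 for MLKL labelled A498, and from -0.038 to 0.106 for CASP1, -0.057 to 0.095 for CASP8 and -0.045 to 0.017 for GSDMD labelled 786-O. The line difference of MLKL with IFNγ in PD-L1si ranged from -0.106 to 0.084. The other 4, labelled 786-O, were CASP1 for PD-L1 siRNA under IFNγ (-0.0028 with filterByExpr, -0.0027 with the compared groups alone) and the CASP8 interaction (-0.0031 with filterByExpr, -0.0067 with protein-coding genes alone).

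With the adjusted p alone, PD-L1 siRNA under IFNγ labelled A498 gave 3 members and 35 genes of the wider list, and without IFNγ 33 of the list; the interaction labelled A498 gave 1 member. In libraries labelled 786-O it gave 31 list genes with IFNγ in Cnsi, 30 in PD-L1si, 1 member and 10 list genes for PD-L1 siRNA under IFNγ, and 2 members and 11 list genes without. Line differences rose to 5 and 5 members for IFNγ and to 2 and 2 for PD-L1 siRNA. With a log2 change over 1, the list with IFNγ in Cnsi labelled A498 had 18 genes, PD-L1 siRNA labelled A498 had 0 members and 6 list genes under IFNγ and 1 member and 6 list genes without, the list labelled 786-O without IFNγ had 1 gene, and all 4 line differences had 0 members, with edgeR. Line differences in members at an unadjusted p under 0.05 numbered 6, 5, 3 and 3, and DESeq2 called 3, 3, 1 and 1. Shares of all genes passing the adjusted p alone, a log2 change over 1 or an unadjusted p are not given here. The counts at those rules therefore show how the main counts move and are not results about these genes.

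Leaving out each library in turn, the interaction labelled A498 gave 0 to 1 members and the list for PD-L1 siRNA under IFNγ labelled 786-O 1 to 3 genes (3 without Cnsi IFNγ replicate 1; main value 1). Replicate numbers were not treated as pairs in the main fits. Same-number correlations ran from -0.160 to 0.317 labelled A498 and from -0.264 to 0.370 labelled 786-O. Their means were 0.062 and 0.077, and those between other numbers -0.031 and -0.038, so a weak pairing cannot be told from none here. A replicate block gave 6 members with IFNγ in Cnsi in each line, 1 and 0 for PD-L1 siRNA under IFNγ, and changed no other member count. CASP1 without IFNγ labelled A498 rests on 38 to 56 reads per library, which limits its precision.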
